A study of Homo sapiens with 12 samples.

Results

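Cadherins are calcium-dependent adhesion receptors whose extracellular domains bind the same or a related cadherin on a neighbouring cell. Classical members such as E-cadherin (CDH1), N-cadherin (CDH2) and P-cadherin (CDH3) bind catenins inside the cell, which link them to actin, and epithelial cells typically carry E-cadherin while mesenchymal and neural cells typically carry N-cadherin. Protocadherins are related receptors; many of them lie in the alpha, beta and gamma clusters, where each gene contributes its own first exon and promoter. The members described here are the genes in the count files whose symbols name a cadherin (CDH with a number), a cadherin-related gene (CDHR1 to CDHR5) or a protocadherin (PCDH with a number, or an alpha, beta or gamma cluster name), without those on chromosomes X and Y. They are 56 of 45320 genes: 22 CDH genes, 5 CDHR genes, 9 protocadherins outside the clusters and 20 clustered ones. A further 2 matching genes lie on X or Y and were left out.

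RNA was sequenced from Ishikawa, an established human endometrial cancer line, in cells that expressed either a non-targeting short hairpin (shNC) or one directed at ARID1A (shARID1A). The ARID1A protein is part of SWI/SNF, a complex that moves nucleosomes. Both arms were grown without phenol red in charcoal-stripped serum and treated for 8 h with DMSO, with 10 nM estradiol (E2), or with 10 nM E2 and 100 nM fulvestrant, an estrogen receptor antagonist that also promotes the receptor's degradation. Each of the 6 groups has 2 libraries. The labels do not give the number of hairpins or lines behind an arm, nor do they say if replicate libraries are separate cultures. The p-values therefore measure library-to-library spread that could be technical, and the hairpin's target cannot be told apart from other differences between the lines.

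Totals ran from 28810351 to 38657162 counts per library. Levels are given as CPM, the count scaled to 1e+06 counts in the library, and the floor used for a gene without reads, 3 counts, was 0.0776 to 0.104 CPM. Fold changes come from a model that also scales each library by a TMM factor, which the CPM do not include. These factors were 1.012 to 1.034 in shNC and 0.9573 to 0.9916 in shARID1A. Fold changes between arms therefore lie slightly above those read from the CPM, which matters for small changes. The targeted gene ARID1A lay at 113.2 to 126.8 CPM with shNC, while every shARID1A library lay between 52.4 and 60.04 CPM. The labelled epithelial identity showed unevenly in its markers. The keratin genes KRT8 (579.7 to 639.1 CPM in shNC) and KRT18 (288.2 to 323.9 CPM) and the mucin gene MUC1 (96.8 to 116.6 CPM) were abundant, while EPCAM had at most 2.04 CPM and the claudin gene CLDN4 and the keratin gene KRT19 had at most 11 and 5 counts in any library. The summed level of the 8 epithelial markers was 990.9 to 1077 CPM in shNC and 610.7 to 639.4 CPM in shARID1A. The part of this gap in the results below was not tested. Averaged over treatments, all 6 tested epithelial markers were called lower, as were 22.8% of all genes tested. Their log2 fold changes ran from -1.03 for EPCAM to -0.44 for HOXA10, with KRT8 at -0.75. Summed endothelial, muscle and immune markers stayed under 10 CPM in every library, at most 9.42, 2.15 and 3.61 CPM. The 8 fibroblast markers summed to 33.2 to 44.5 CPM in shNC and 48.8 to 52.0 CPM in shARID1A, with THY1 at 0 counts. The fibroblast sum followed COL1A1, which rose by 0.60 on the log2 scale, while the other 2 tested markers were called lower, DCN at -2.91 and PDGFRB at -0.55. The 6 neural markers summed to 196.6 to 229.0 CPM over all libraries, most of it TUBB3 (183.8 to 220.7 CPM, not called). SNAP25 and SYP rose by 0.70 each, NCAM1 (-0.56) was not called, and MAP2 and GFAP were not tested. The part of these markers in the results was not tested either.

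The clustered protocadherin promoters are shown first, because the letters they share can be read directly, while only 4 of the 20 genes had enough counts to test. Promoters of clustered protocadherins carry a conserved element with the core CGCT, which lies a short way before the start site. RefSeq (GRCh38.p14) gave a promoter for 35 of the 56 members, 13 of them clustered, with 47 promoters in all because some members have several starts. The letters GNCGCT were searched on both strands in the 250 bases before each start. They were found in 12 of 13 clustered promoters and in 37.5% of the 35116 RefSeq promoters. Over all 47 member promoters, clustered ones included, they were in 27. The shorter core CGCT, which GNCGCT contains, was in 12 of 13 and in 64.8% of all. The longer form was chosen after the sequences were seen. The windows printed are a selection. Further alpha windows are left out. Among them are a second PCDHA7 match, beginning 18 bases before the start, and the PCDHAC1 match, both with other flanking letters. Each line gives 27 bases around a match to GNCGCT, in capitals, for alpha, beta and gamma genes, 5′ to 3′ on the plus strand.
PCDHA7: gccacatgatGTCGCTctttaccgcaa
PCDHA1: gccacatgatGTCGCTgtacaccacaa
PCDHB9: gccacaaggtGGCGCTgcagactgaag
PCDHB12: gacgcgtggtGGCGCTgcaggataata
PCDHB14: gacacatggtGGCGCTacaggataaga
PCDHGA1: gactgtgggcGCCGCTgttcactaatc
PCDHGA2: gcctctgagcGTCGCTgttgaccacct
The PCDHB14 window is chr5:141223267-141223293 and its capitals begin 66 bases before the start. In PCDHGA1 the window is chr5:141330407-141330433 and the capitals begin 97 bases before the start. A match is a description of these letters and not a measured binding site.

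The order of the levels was set by 4 genes. Levels are compared between genes as RPKM, which is CPM divided by exon length in kilobases, over the exonic bases that no other gene shares. CDH2, N-cadherin, was the highest member in shNC at 9.08 ± 0.64 RPKM (SD, n = 6 libraries). CDH24, a type II cadherin, followed at 7.70 ± 0.78 RPKM and CDH13, T-cadherin, which is held in the membrane by a lipid anchor and lacks the catenin-binding tail, at 6.21 ± 0.32 RPKM. PCDH7, a protocadherin outside the clusters, had 3.71 ± 0.21 RPKM. That order held in each of the 6 shNC libraries for every neighbouring pair of the 4. These genes together held 86.4 to 88.4% of all counts on the 56 members in shNC and 77.2 to 81.9% in shARID1A.

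In shARID1A the order was different. CDH24 led at 5.87 ± 0.76 RPKM and CDH13 had 5.75 ± 0.47 RPKM, with CDH24 above CDH13 in 2 of 6 libraries, so that these neighbours did not differ beyond their spread. CDH2 followed at 3.20 ± 0.27 RPKM, below CDH24 and CDH13 in each of the 6 libraries and above PCDH7 (3.12 ± 0.22 RPKM) in 3 of 6. PCDH1 was next at 1.33 ± 0.28 RPKM. The share of CDH2 among all counts on the members was 28.4 to 30.2% in shNC and 12.9 to 15.7% in shARID1A.

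**Figure D1:**
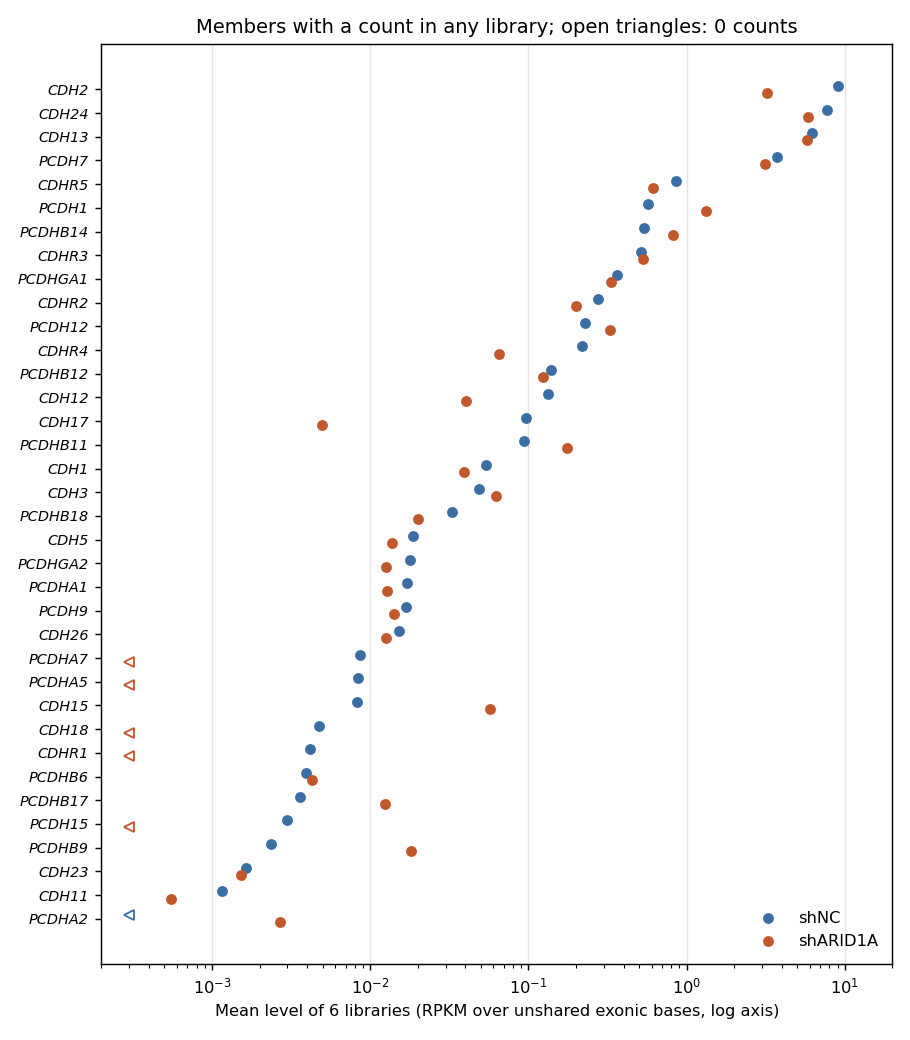
Mean level of each member with a count in any library, as RPKM over unshared exonic bases on a log axis, in shNC (blue) and shARID1A (orange), each the mean of 6 libraries; open triangles mark 0 counts in that arm. CDH2, CDH24, CDH13 and PCDH7 stand above the rest, and CDH2 leads in shNC (9.08 RPKM) but not in shARID1A (3.20 RPKM). Values for members with few counts are imprecise.

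E-cadherin and P-cadherin were near the floor. CDH1 had 7 and 9 counts in shNC with DMSO, 11 and 4 under E2, and 21 and 0 when fulvestrant was added. In shARID1A it had 3 and 6, 2 and 13, and 12 and 4 counts in the same order, and the arms overlapped. The mean level of CDH1 was 0.054 RPKM in shNC and 0.039 RPKM in shARID1A, against 9.08 and 3.20 RPKM for CDH2. CDH3 had 0 to 14 counts in shNC and 1 to 19 in shARID1A. The exons counted for CDH1 amount to 89.8% of the gene's exonic length in GENCODE v29, and 6.25% of them overlap a gene on the other strand, where reads are assigned to neither gene. CDH1 was not called in the arm comparison averaged over treatments (log2 fold change -0.36, 95% interval -1.52 to 0.79, adjusted p = 0.645 by edgeR's quasi-likelihood test), nor was CDH3 (0.42, interval -0.82 to 1.66, adjusted p = 0.618). The intervals reach beyond 1 log2 unit upward for CDH3 and downward for CDH1. Without replicate 1 of shNC with E2 plus fulvestrant the CDH1 estimate was 1.77 (adjusted p = 0.268), so its sign rests on that library. For CDH3 the single treatments gave 2.45 in DMSO, 0.72 under E2 and -1.92 with fulvestrant added, none called, and its averaged value ran from 0.006 (without replicate 1 of shARID1A with E2 plus fulvestrant) to 1.78 (without replicate 1 of shNC with DMSO).

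How far the counts reach differed between members. The exons counted added up to a median of 57.3% of the GENCODE v29 exonic length over the 54 members found there, and 21 members had less than 50%. PCDH10 (5.54%), PCDH12 (6.82%) and CDH20 (12.9%) had the lowest ratios, so that low counts for these say little. The ratio of lengths was 87.9% for CDH2, 95.5% for PCDH1, 53.4% for CDH24, 47.2% for CDH13, 58.1% for PCDH7 and 49.0% for PCDHB14. For CDHR3 it was 138%, so counted exons can include bases that GENCODE v29 lacks, and the ratio is not a measured overlap. Lengths only were compared, because the 2 annotations use different genome builds. Symbols of the same families that are in GENCODE v29 but not in the count files numbered 39, most of them clustered protocadherins, and they are not analysed here. Among clustered genes reads from near-identical stretches can be lost or split, so their levels are uncertain.

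Of the 56 members, 16 passed the filter on low counts and were tested: 6 CDH genes, 4 CDHR genes, 2 protocadherins outside the clusters and 4 clustered ones. The other 40 had at most 14 counts in any library, and 20 of them had 0 in all 12. Those at 0 include CDH6, CDH16 (kidney cadherin) and PCDH17. Cadherins that mark other tissues were at or near 0, among them the endothelial cadherin CDH5 (at most 6 counts), the muscle cadherin CDH15 (at most 14), the mesenchymal CDH11 (at most 2) and the hair-cell genes CDH23 and PCDH15 (at most 3 and 6).

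The comparison of shARID1A with shNC asked how the cadherin set differs between cells with less ARID1A and control cells. Averaged over the 3 treatments, 7 of the 16 tested members were called at an adjusted p under 0.05, against 43.1% of all 17020 genes tested, so the share of members called was near the background. N-cadherin, CDH24, PCDH7, CDH12 and CDHR4 fell, and the protocadherin genes PCDH1 and PCDHB14 rose. Of these, CDH12 and CDHR4 passed the filter on low counts only through their shNC libraries. In 1 direction each, 2 members were higher against 20.3% of all genes and 5 were lower against 22.8%. The members' median log2 fold change was -0.16 and that of all genes tested -0.02. Only CDH2 (below) and PCDH1 (above) had 6 shARID1A libraries that did not overlap the 6 shNC libraries once scaled by TMM, which was seen below for 10.6% and above for 11.4% of all genes tested.

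CDH2 (chromosome 18, 25531045 to 25739261, hg19, minus strand) had the smallest p of the members. Its level was 37.2 and 35.2 CPM in shNC with DMSO, 35.4 and 40.0 CPM with E2, and 41.5 and 40.4 CPM with E2 plus fulvestrant. In shARID1A it was 12.7 and 14.3, 12.2 and 12.8, and 13.8 and 15.2 CPM in the same order. Every shARID1A library was thus below every shNC library at each treatment. Averaged over treatments N-cadherin RNA fell by 1.43 on the log2 scale (SE 0.06, adjusted p = 2.44e-18), a 2.70-fold lower level. In bulk RNA, fewer cells with a gene and less of its RNA per cell cannot be told apart. The estimate stayed between -1.46 and -1.40 when any single library was left out. Of the exonic length counted for CDH2, 3.13% overlaps a gene on the other strand.

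PCDH1 (chromosome 5, 141232938 to 141258811, hg19, minus strand), a protocadherin at epithelial cell contacts, moved the other way. It had 4.02 and 3.05 CPM in shNC with DMSO, 2.79 and 3.16 CPM with E2, and 3.20 and 2.94 CPM with E2 plus fulvestrant. In shARID1A it had 6.58 and 9.32, 8.60 and 8.72, and 5.32 and 6.49 CPM. All 6 shARID1A libraries were higher than all 6 shNC libraries. Averaged over treatments PCDH1 rose by 1.28 on the log2 scale (SE 0.13, adjusted p = 5.36e-10), a 2.44-fold higher level. The rise was 1.22 for DMSO, where the adjusted p was 5.38e-05. Under E2 the rise was 1.62 (adjusted p = 3.61e-07), and when fulvestrant was present it was 1.01 (adjusted p = 0.00152).

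The PCDH1 promoter is printed because this gene rose most among the members called higher. The 250 bases before the RefSeq start (GRCh38.p14, chr5:141869628-141869877, minus strand, 5′ to 3′) are given with matches to the E-box CAGGTG and the AP-1 letters TGANTCA in capitals.
PCDH1: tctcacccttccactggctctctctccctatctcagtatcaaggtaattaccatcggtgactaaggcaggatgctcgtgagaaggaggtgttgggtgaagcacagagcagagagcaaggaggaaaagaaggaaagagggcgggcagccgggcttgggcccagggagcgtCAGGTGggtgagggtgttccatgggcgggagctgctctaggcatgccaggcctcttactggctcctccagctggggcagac
The window held 1 E-box, beginning 81 bases before the start, and 0 AP-1 matches. Over both strands the E-box was in 17.5% of all RefSeq promoters of this length and in 5 of the members' 47, and TGANTCA in 6.57% and in 3 of 47. CAGGTG is the sequence that zinc-finger repressors of E-cadherin such as ZEB1 and the Snail factors bind, but a match here says nothing about binding.

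CDH24 (chromosome 14, 23516279 to 23519348, hg19, minus strand) had 14.6 and 16.1 CPM in shNC with DMSO, 14.5 and 14.4 CPM with E2, and 18.3 and 14.5 CPM with E2 plus fulvestrant. In shARID1A the values were 10.3 and 11.5, 12.1 and 14.3, and 12.3 and 10.1 CPM. The highest shARID1A library, with E2, came close to the lowest shNC libraries, and after scaling the arms overlapped. Averaged over treatments CDH24 fell by 0.32 on the log2 scale (SE 0.08, adjusted p = 0.00207), with called falls in DMSO (-0.43, adjusted p = 0.0369) and with E2 plus fulvestrant (-0.48, adjusted p = 0.0132) and none with E2 (-0.04, adjusted p = 0.859). The E2 effect was not called as different between arms (0.39, SE 0.20, adjusted p = 0.805). The fall in DMSO was not called without either shNC or either shARID1A library of that treatment (adjusted p = 0.0715 to 0.246) or by DESeq2 (adjusted p = 0.0565), and the fall with E2 plus fulvestrant was not called without replicate 1 of shNC or replicate 2 of shARID1A there (adjusted p = 0.288 and 0.186).

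PCDHB14, a beta-cluster protocadherin, was the only clustered gene called. It had 1.29 and 0.694 CPM in shNC with DMSO, 1.72 and 1.253 CPM with E2, and 1.39 and 1.29 CPM with E2 plus fulvestrant. In shARID1A it had 1.61 and 2.59, 1.43 and 1.63, and 2.34 and 2.04 CPM, so that the arms overlapped in the E2 groups. It rose by 0.68 averaged over treatments (SE 0.20, adjusted p = 0.00733) and by 1.12 in DMSO (SE 0.37, adjusted p = 0.0302). In DMSO the call was lost without replicate 2 of shNC (adjusted p = 0.292) or replicate 2 of shARID1A (adjusted p = 0.36) and by DESeq2 (adjusted p = 0.0505). It was not called under E2 (0.14, SE 0.35, adjusted p = 0.808) or with fulvestrant added (0.78, SE 0.34, adjusted p = 0.101). Its E2 effect was not called as different between arms (-0.97, SE 0.51, adjusted p = 0.808).

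**Figure D2:**
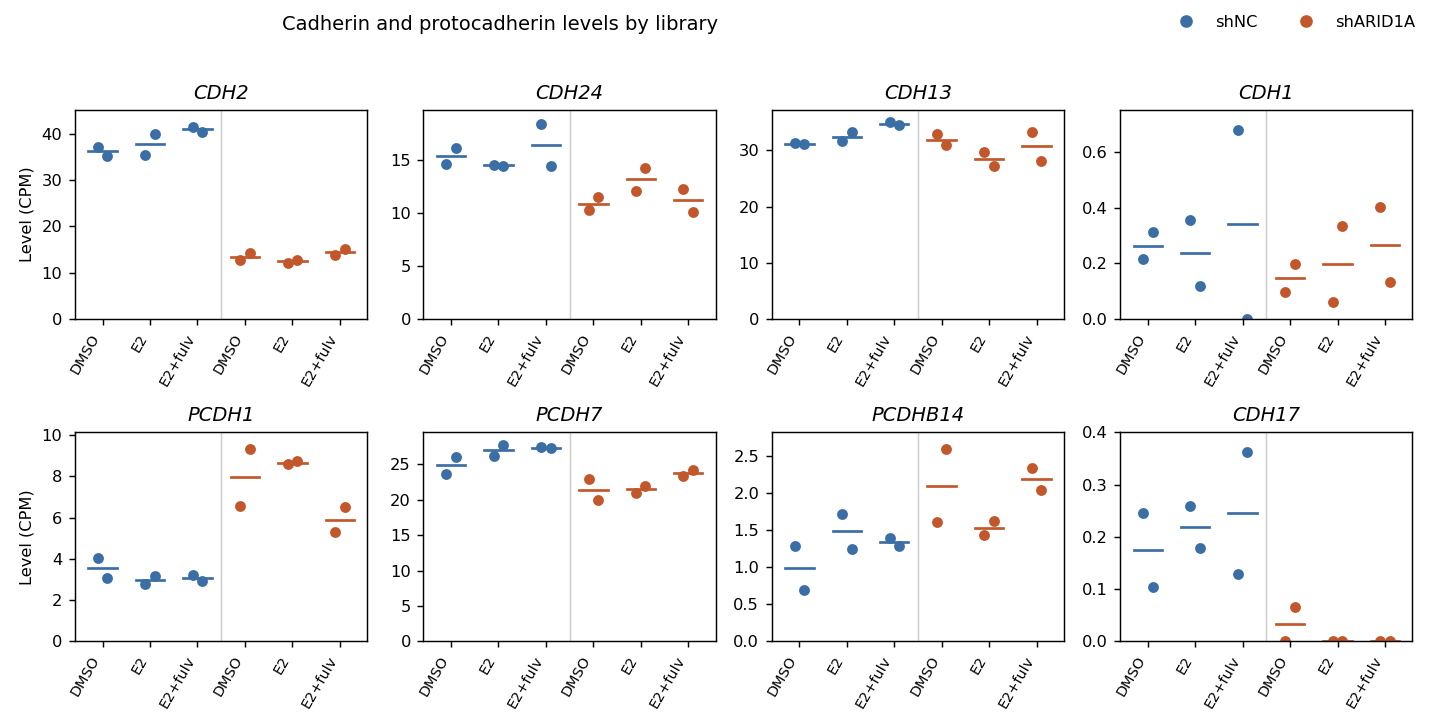
Level in CPM of 8 members in each library by group, shNC in blue and shARID1A in orange; points are the 2 libraries of a group, lines their mean, and each panel has its own axis from 0. CDH2 lies at 35.2 to 41.5 CPM in shNC and 12.2 to 15.2 CPM in shARID1A, PCDH1 is higher in all shARID1A libraries, CDH13 overlaps between arms and CDH1 stays under 0.7 CPM.

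The other tested members outside the CDHR family moved little or had few counts. PCDH7 had 23.7 and 26.0 CPM in shNC with DMSO, 26.2 and 27.7 CPM with E2, and 27.4 and 27.2 CPM with E2 plus fulvestrant. In shARID1A it had 22.9 and 19.9, 21.0 and 21.9, and 23.3 and 24.2 CPM, and the arms overlapped at the lowest shNC library. It fell by 0.17 on the log2 scale averaged over treatments (SE 0.06, adjusted p = 0.0174) and was not called in any single treatment. That call was lost without replicate 2 of shNC in DMSO (adjusted p = 0.0553) or replicate 2 of shARID1A in DMSO (adjusted p = 0.0826). T-cadherin (CDH13) had 31.2 to 34.98 CPM in shNC and 27.1 to 33.3 CPM in shARID1A. Its log2 fold change was -0.04, with a 95% interval of -0.15 to 0.07 and an adjusted p of 0.595. The interval for CDH13 does not reach the change of CDH2 (-1.56 to -1.30).

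CDH12, a type II cadherin of the brain, and CDHR4 were called lower at under 1 CPM as a group mean. They are named because they were called, not by the naming rule. Both passed the filter on low counts only through their shNC libraries, the arm in which they are high. Their p-values therefore describe these counts and are no separate support for a fall. CDH12 had 9 and 23, 5 and 34, and 22 and 20 counts in shNC with DMSO, E2 and E2 plus fulvestrant, and 6 and 12, 3 and 6, and 6 and 2 counts in shARID1A. Its log2 fold change averaged over treatments was -1.72 (SE 0.47, adjusted p = 0.00322). CDHR4 had 19 and 14, 11 and 14, and 10 and 13 counts in shNC and 4 and 9, 0 and 1, and 0 and 10 in shARID1A, and fell by 2.24 on the log2 scale (SE 0.60, adjusted p = 0.00293). With E2 the CDHR4 ratio of shNC to shARID1A was 27.5, from 25 counts against 1, with an exact 95% interval of 4.50 to 1130. That interval covers counting error only and takes each count as an independent read. CDHR4 was called under E2 (adjusted p = 0.0157) but not in DMSO (-1.27, adjusted p = 0.262) or with fulvestrant added (-1.08, adjusted p = 0.412), and its E2 effect was not called as different between arms (-3.10, adjusted p = 0.836). For CDH12 the values were -0.76 in DMSO (adjusted p = 0.538), -2.13 under E2 (adjusted p = 0.0533) and -2.26 with fulvestrant added (adjusted p = 0.0486). Both genes show values that differ severalfold between the 2 libraries of 1 group.

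The CDHR genes encode cadherin-related proteins, some of them at apical surfaces. CDHR2 and CDHR5 bridge the tips of neighbouring microvilli in brush borders, and CDHR3 is known from ciliated airway cells. CDHR5 had 1.81 to 3.38 CPM in shNC and 1.44 to 2.27 CPM in shARID1A, and its log2 difference of -0.41 (SE 0.18) had an adjusted p of 0.0591. CDHR3 had 4.30 to 5.76 and 4.83 to 5.90 CPM (0.13, SE 0.11, adjusted p = 0.391). CDHR2 had 0.429 to 0.828 and 0.078 to 0.722 CPM (-0.54, SE 0.37, adjusted p = 0.252). None of these 3 was called. Of the clustered protocadherins beside PCDHB14, PCDHGA1 (0.644 to 1.253 CPM in shNC and 0.368 to 1.07 CPM in shARID1A), PCDHB11 and PCDHB12 were not called (adjusted p = 0.869, 0.184 and 0.865), and 16 were not tested. Of the 20 clustered genes 13 had a count in some library, and no alpha-cluster gene had more than 8 in any.

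CDH17, the liver-intestine cadherin, did not pass the filter but is named after its values were seen. It had 8 and 3 counts in shNC with DMSO, 8 and 6 under E2, and 4 and 11 when fulvestrant was added. In shARID1A it had 0 and 2 with DMSO and 0 in the other 4 libraries. The lowest shNC library had 3 counts and the highest shARID1A library 2. How many other genes below the filter part the arms in this way was not computed. Because CDH17 was chosen for these values, its ratio and calls describe them and are no separate support. The ratio of 40 to 2 counts was 20.5 after scaling by library totals. Its exact 95% interval of 5.33 to 175 is for counting error only and again takes each count as an independent read. With no filter on low counts edgeR called it lower averaged over treatments (adjusted p = 0.000427), as did DESeq2 (adjusted p = 0.00117). Of the 4 intestine or liver markers, ALB had 0 counts, VIL1 and CDX2 had at most 2, and HNF4A had 0.937 to 1.85 CPM in shNC and 0.0985 to 0.548 CPM in shARID1A.

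**Figure D3:**
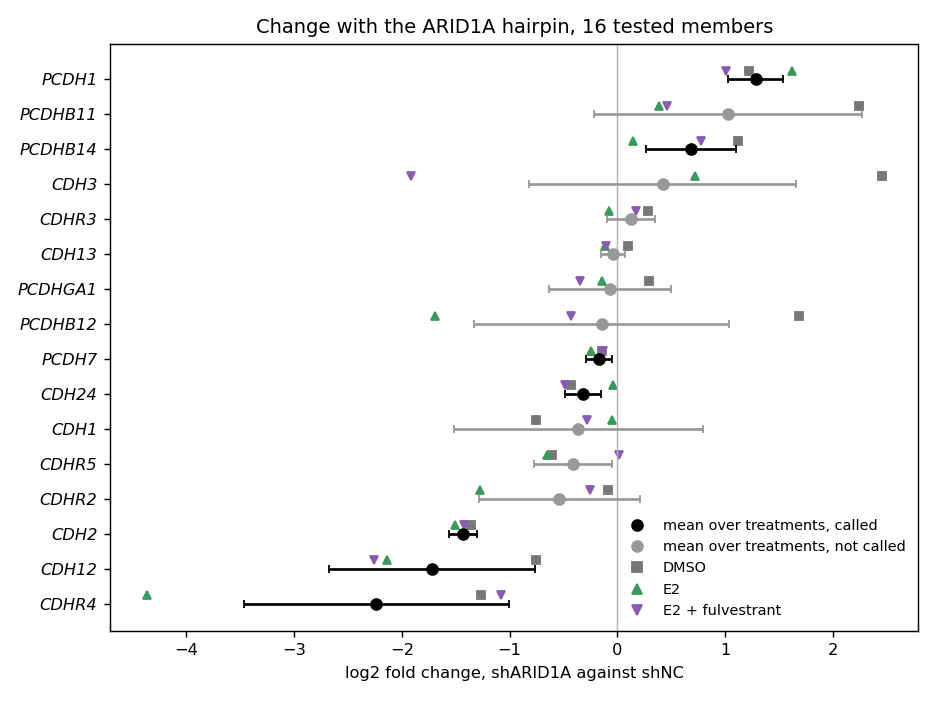
Log2 fold change of shARID1A against shNC for the 16 tested members: circles with 95% intervals are the mean over treatments (black where called, grey where not), and small symbols above them are the single treatments. CDH2 lies between -1.51 and -1.36 in the single treatments and PCDH1 between 1.01 and 1.62, CDH13 (-0.04) sits at 0, and CDH3, CDHR4 and PCDHB12 scatter widely at few counts.

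By treatment, 4 members were called in DMSO, against 19.2% of all genes: 2 higher (9.7% of all) and 2 lower (9.5%). With E2 there were 3, against 27.2%: 1 higher (13.4%) and 2 lower (13.8%). With fulvestrant added there were 4, against 24.2%: 1 higher (11.4%) and 3 lower (12.8%). CDH2 and PCDH1 were called in each of the 3. For CDH2 the DMSO groups differed by -1.36 (adjusted p = 5.14e-11). The E2 groups differed by -1.51 (adjusted p = 2.23e-12), and the groups with fulvestrant by -1.43 (adjusted p = 9.36e-12), each with an SE of 0.11. The count in DMSO was 2 by DESeq2, which gave an adjusted p to 11 members there. Where fulvestrant was added the count dropped to 2 without replicate 2 of shARID1A there.

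Estradiol and fulvestrant were then compared within and across arms. None of the 16 tested members was called by edgeR for E2 against DMSO, for E2 plus fulvestrant against E2 or against DMSO, or for the difference of the E2 or fulvestrant effect between arms. DESeq2 also called 0, but it gave no member an adjusted p for fulvestrant added to E2 averaged over arms or for the difference of the E2 effect, and only 3 for fulvestrant in shARID1A, so it says nothing there. Averaged over arms, E2 against DMSO called 0.00588% of all genes tested (0.00588% higher). Fulvestrant added to E2 called 0.0646% (0.0235% higher and 0.0411% lower). E2 in shARID1A called 0.0235% (0.0176% higher), E2 in shNC and fulvestrant in either arm 0.00588% each, and E2 plus fulvestrant against DMSO 0%. The difference between arms called 0.0294% for the E2 effect (0.0235% higher) and 0.0118% for the fulvestrant effect. With so few genes called, 0 of 16 members is near the background. At an unadjusted p under 0.05 there were 2 members for E2, 1 for fulvestrant added to E2 and 2 for E2 plus fulvestrant against DMSO. Within arms these numbers were 0 in shNC and 4 in shARID1A for E2, and 0 and 3 for fulvestrant added to E2. For the difference between arms they were 1 for E2 and 2 for fulvestrant. The share of all genes at this unadjusted threshold was not computed. These numbers therefore have no background, and they do not show that a treatment acted in a single arm.

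The intervals show what size of effect could have gone unseen. For CDH2, E2 against DMSO gave -0.02 with a 95% interval of -0.18 to 0.14, and E2 plus fulvestrant against E2 gave 0.15 (-0.01 to 0.31, adjusted p = 0.392). For CDH13 the values were -0.05 (-0.19 to 0.09) and 0.09 (-0.05 to 0.23), and for PCDH7 0.07 (-0.08 to 0.22) and 0.06 (-0.08 to 0.21). For PCDH1 they were -0.06 (-0.38 to 0.25) and -0.27 (-0.61 to 0.06). PCDH1 in shARID1A was 8.60 and 8.72 CPM with E2 and 5.32 and 6.49 CPM with E2 plus fulvestrant, groups that did not overlap, but this difference had an adjusted p of 0.347. The E2 effect on CDH2 differed between arms by -0.15 (-0.48 to 0.17, adjusted p = 0.91), and that on PCDH1 by 0.40 (-0.23 to 1.03, adjusted p = 0.876). PCDHB12 had the smallest p for fulvestrant added to E2 averaged over arms (log2 fold change 1.97, adjusted p = 0.156), from 2 and 11 to 15 and 17 counts in shNC and 0 and 4 to 16 and 6 in shARID1A.

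**Figure D4:**
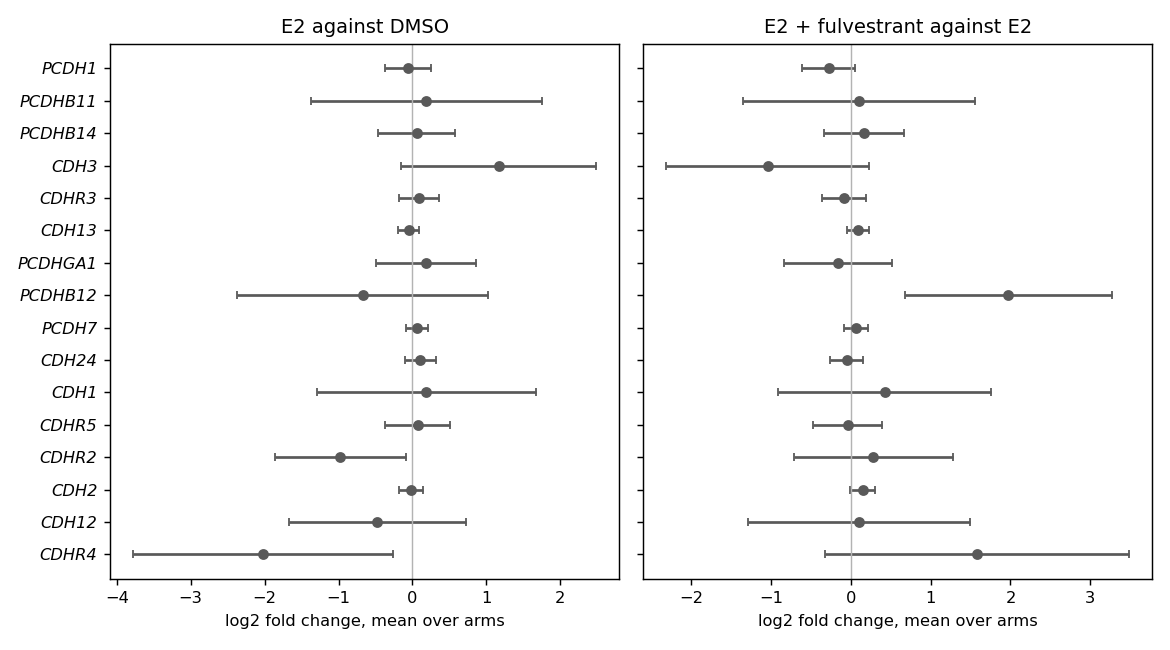
Log2 fold change with its 95% interval for E2 against DMSO (left) and E2 plus fulvestrant against E2 (right), averaged over arms, for the 16 tested members; the panels have different axes. The intervals of CDH2, CDH13, PCDH7 and CDH24 reach at most 0.31 from 0, no member was called, and PCDHB12, at 0 to 17 counts a library, has the largest value on the right at 1.97.

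Genes that work with cadherins changed in both directions in the arm comparison averaged over treatments, in which 20.3% of all genes tested rose, 22.8% fell and the median was -0.02. Of 25 tested catenins and junction linkers, 6 rose and 9 fell, with a median log2 fold change of -0.07. Plakoglobin (JUP), a catenin of adherens junctions and desmosomes, rose by 0.75 (SE 0.04, adjusted p = 5.73e-17), from 251.7 to 300.8 CPM in shNC to 432.0 to 463.3 CPM in shARID1A. Alpha-catenin (CTNNA1) rose by 0.23 and the phosphoinositide kinase gene PIP5K1C by 0.36, while MLLT4, which encodes the nectin-binding protein afadin, fell by 0.52. Beta-catenin (CTNNB1), named here as the main partner of classical cadherins and not by its p, rose by 0.12 (SE 0.03, adjusted p = 0.00651), with overlapping arms of 145.5 to 164.3 CPM in shNC and 146.4 to 170.8 CPM in shARID1A.

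Of 10 tested cadherin superfamily genes outside the naming scheme, 3 rose and 2 fell (median -0.06). FAT4, a giant cadherin that signals in planar polarity and growth control, fell by 2.04 (SE 0.21, adjusted p = 1.36e-09), from 2.53 to 4.19 CPM to 0.569 to 1.00 CPM. CLSTN1, a calsyntenin, rose by 0.44 and its relative CLSTN3 fell by 0.57, and CELSR1, a seven-pass cadherin, rose by 0.17. Of 8 tested transcription factors and splicing factors of the epithelial-mesenchymal axis, 1 rose and 2 fell (median 0.02). Of the 20 genes listed for this axis, 14 were in the count files. The Snail genes SNAI1, SNAI2 and SNAI3 were not, so their levels are unknown here. ZEB1, a repressor of CDH1, fell by 0.67 (SE 0.06, adjusted p = 2.58e-10), from 27.3 to 36.7 CPM to 17.2 to 21.9 CPM, ESRP2, an epithelial splicing regulator, rose by 0.43 and ELF3, an epithelial transcription factor, fell by 0.35. TCF3 had 0.06 and was not called. The epithelial factors GRHL2, OVOL1, OVOL2 and ESRP1 had at most 4 counts in any library.

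Of 11 tested proteases and gamma-secretase subunits that cut cadherins, 4 rose and 2 fell (median 0.03). APH1A rose by 0.32, PSEN2 by 0.37 and ADAM15 by 0.21, and the proprotein convertase gene FURIN fell by 0.18. Of 19 tested regulators of the protocadherin clusters, 1 rose and 9 fell, with a median of -0.11. They include the cohesin loader NIPBL (-0.39), the cohesin subunits RAD21 (-0.27) and SMC3 (-0.37), and SMCHD1 (-0.45), a chromatin protein that acts on the clusters. By treatment, 2 of the 19 fell and 0 rose in DMSO (9.5% and 9.7% of all genes), and 7 fell and 1 rose both under E2 (13.8% and 13.4%) and with fulvestrant added (12.8% and 11.4%). Of 12 tested signalling partners of clustered protocadherins, 2 rose and 4 fell (median -0.11). CYFIP2 and CYFIP1, subunits of the WAVE actin-regulating complex, rose by 1.28 (SE 0.05, adjusted p = 5.09e-19) and 0.24, and the kinase gene PTK2 and the WAVE subunit gene ABI1 fell by 0.15 and 0.13. None of these 6 lists had a called member for E2 against DMSO or for E2 plus fulvestrant against E2 averaged over arms.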

How the data were processed

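TruSeq mRNA libraries were made from 12 samples, per the labels' protocols. The deposited values are counts, whole reads per gene with no normalization by the authors. The submitters' processing notes name FastQC, Trim Galore, cutadapt, Subread 2.0.0 and hg19 without their roles. Reads were counted over exons with featureCounts 2.0.0 without options for strand, read pairs or overlaps, per the file headers. Over all genes and libraries, values of 2 were 1.16 times as frequent as values of 1 and values of 4 were 1.36 times as frequent as values of 3. Whether both reads of a pair were counted is not given in the sources used here, so intervals and floors cover counting error of single reads only. The fulvestrant dose is typed with letters for zeros and was read as 100 nM.

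The model was edgeR 4.0.16 under R 4.3.3 (filterByExpr by group, TMM factors, 1 mean for each of 6 groups over all 12 libraries, glmQLFit with legacy = FALSE, glmQLFTest). In each of 13 contrasts p was adjusted by Benjamini-Hochberg across 17020 tested genes, and a gene is called under 0.05. Standard errors are the log2 fold change divided by the root of F, and 95% intervals use the fit's degrees of freedom. Unshared exonic length was computed from the exons in the files. DESeq2 1.42.0, RLE factors, no filter, a replicate block and leaving out each library were the alternatives. Named members are those called with a mean of at least 1 CPM in some group, plus CDH1, CDH2 and CDH3, and of each list the 4 genes with the smallest p. The members and lists were chosen with earlier results of these data known.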

Additional observations from a re-analysis of the deposited data

How the results depend on the processing

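Averaged over treatments, the 7 members called in the arm comparison were 8 by DESeq2 and with no filter on low counts, 7 with RLE factors, and 7 to 9 when 1 library was left out. In DMSO the 4 calls were 2 by DESeq2 and 2 to 4 when 1 library was left out. With E2 the 3 calls were 5 with no filter and 2 to 4 when 1 library was left out, and with E2 plus fulvestrant the 4 calls were 2 to 5. No treatment comparison called a member under any of the 16 alternatives, of which DESeq2 gave no adjusted p for the members in 2 comparisons. The replicate numbers of the labels did not pair the libraries in a uniform way. Over 10338 genes, same-numbered libraries of 15 pairs of groups deviated with correlations of -0.222 to 0.276, 7 of them over 0.1. A batch numbered differently between groups was not tested. With the replicate block 7 members were called averaged over treatments, 4 in DMSO, 4 with E2 and 4 with E2 plus fulvestrant. The number of members tested was 16 with RLE factors and the replicate block, and 36 with no filter. By DESeq2 it was 20 averaged over treatments, 11 in DMSO, 11 with E2 and 9 with E2 plus fulvestrant. It rose above 16 when 1 library was left out. The share of all genes called was not computed under the alternatives, so these counts have no background. Of 442 values of the named members' fold changes under an alternative, 430 kept direction and side of the threshold or were not called in either fit, and 12 lost the call, all of CDH24, PCDHB14 or PCDH7. No called fold change reversed. At 3 counts, or 0.0776 to 0.104 CPM, depth limits what can be said of CDH1, CDH3, CDH12, CDHR4 and the clustered genes.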
